A study of Mus musculus with 52 samples.

Results

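Binding of Rad21, a subunit of the cohesin ring, was compared directly between 2 kinds of mouse embryonic fibroblasts (MEFs) that lack the chromosomal protein SmcHD1, with the wild-type (wt) list set aside. The mut list held 66031 peaks. The list of the somatic knockout (somKO) held 89974 peaks and was cut to its 66031 highest scores, so that both lists had the same length. A peak was called private if it overlapped no peak of the other list by at least 1 bp. There were 13983 mut-only and 19943 somKO-only peaks, together 33926 of the 132062 peaks compared, and 418635 peaks are held by the 8 lists of the whole series.

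All cells were clonal female MEFs from an F2 cross of M.m.domesticus FVB with M.m.castaneus, in which the inactive X (Xi) was of castaneus origin. The mut cells were 1 clone, Mut5A6, homozygous for the germline null allele that the labels spell MomeD1, so that SmcHD1 was missing before X inactivation began. The somKO cells were clones A3-3 and D4, in which SmcHD1 was disrupted with CRISPR after X inactivation had been established. Both clones came from 1 wild-type clone other than the Wt2A1 clone behind the wt list, and a supplementary legend describes them as triploid. The text used here gives no ploidy for the mut clone. Autosomes in this cross are a mosaic of the parental strains that can differ from clone to clone. The mut list was merged by the authors from 2 libraries and the somKO list from 4, 2 for each clone. Genotype, clone, ploidy and number of libraries therefore cannot be told apart in anything that follows. As each genotype is represented by 1 list, replicate error cannot be given and no test was run. Intervals in parentheses are 95% Wilson intervals, which cover counting error only.

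Cohesin is a ring built from Smc1a, Smc3, Rad21 and a Stag subunit. It is loaded onto chromatin by Nipbl and Mau2, extrudes DNA into loops and is released by Wapl. The zinc finger protein CTCF stops the ring at its own binding sites, which is why most strong cohesin peaks of mammalian cells lie on CTCF sites and mark loop anchors and domain boundaries. Weaker cohesin peaks without CTCF are found at active promoters and enhancers, where the ring is loaded or passes. SmcHD1 is a relative of the SMC proteins that coats the Xi and acts in keeping it silent.

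The sequences shown here are 200 bases from inside 7 private peaks, on the forward strand of the mouse build GRCm38 (mm10), from the RefSeq genome of that build. They include examples of a CTCF core, an AP-1 site outside CTCF peaks, a promoter and a repeat. None of the 7 peaks overlapped any peak of the full deposited list of the other genotype. Capitals mark letters that match, on either strand, the consensus of the CTCF core or TGANTCA (AP-1), GGAATG (TEAD) or TGTGGT (RUNX). The first is from the highest-scoring somKO-only peak, in the intergenic region beside Med13l (chr5:118814164-118814363), and the second from the highest somKO-only peak on X, in an intron of Dmd (chrX:84001380-84001579). The next pair are from the highest somKO-only peak (chr5:119233079-119233278, intergenic) and mut-only peak (chr10:59539812-59540011, in an intron of Mcu) that had no CTCF peak in their own genotype and held the AP-1 letters. The Mest sequence lies at the promoter of Mest (chr6:30737933-30738132). Another is from an intron of Hmga2 inside the longest run of mut-only peaks (chr10:120377225-120377424), and the last from the highest-scoring mut-only peak (chr14:19415864-19416063).
Med13l side, somKO-only: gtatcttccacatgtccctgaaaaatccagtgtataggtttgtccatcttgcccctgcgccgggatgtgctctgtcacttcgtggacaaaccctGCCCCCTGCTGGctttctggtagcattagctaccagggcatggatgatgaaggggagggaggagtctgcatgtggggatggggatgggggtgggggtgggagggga
Dmd intron, somKO-only: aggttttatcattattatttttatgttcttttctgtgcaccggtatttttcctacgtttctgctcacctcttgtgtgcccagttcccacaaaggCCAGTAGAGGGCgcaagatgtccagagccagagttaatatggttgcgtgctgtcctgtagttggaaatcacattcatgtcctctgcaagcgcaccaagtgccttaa
Tbx3 side, somKO-only: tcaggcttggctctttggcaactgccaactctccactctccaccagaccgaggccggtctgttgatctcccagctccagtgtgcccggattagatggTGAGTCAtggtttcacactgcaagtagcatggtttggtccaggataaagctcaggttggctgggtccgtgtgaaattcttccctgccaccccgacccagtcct
Mcu intron, mut-only: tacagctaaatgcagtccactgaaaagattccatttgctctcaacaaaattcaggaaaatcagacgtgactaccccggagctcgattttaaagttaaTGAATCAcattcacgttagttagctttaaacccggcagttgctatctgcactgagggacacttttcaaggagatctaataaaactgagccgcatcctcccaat
Mest promoter, mut-only: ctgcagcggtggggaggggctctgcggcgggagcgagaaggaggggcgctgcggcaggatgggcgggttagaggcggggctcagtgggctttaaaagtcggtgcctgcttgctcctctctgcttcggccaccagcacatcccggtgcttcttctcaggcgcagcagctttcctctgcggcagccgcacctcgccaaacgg
Hmga2 intron, mut-only: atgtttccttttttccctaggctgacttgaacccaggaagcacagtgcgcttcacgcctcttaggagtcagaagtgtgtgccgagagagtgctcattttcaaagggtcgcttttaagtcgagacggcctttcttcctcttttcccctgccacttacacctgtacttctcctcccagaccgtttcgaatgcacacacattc
Gm21738, mut-only: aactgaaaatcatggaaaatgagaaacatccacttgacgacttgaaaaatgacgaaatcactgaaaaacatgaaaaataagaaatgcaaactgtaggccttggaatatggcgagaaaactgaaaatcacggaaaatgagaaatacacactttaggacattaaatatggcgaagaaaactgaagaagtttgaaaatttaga
The Med13l and Dmd stretches each held 1 match to the CTCF core, and the Tbx3-side and Mcu stretches 1 AP-1 match each. These stretches are centred on the marked letters, whereas those from Mest, Hmga2 and Gm21738 are centred on the peak midpoint. Presence and absence of letters therefore cannot be compared between them. The CTCF cores of Med13l and Dmd lie outside the 300 bp around the midpoint in which motifs are counted below. No motif letters were found in the stretches from Mest, Hmga2 and Gm21738. The Gm21738 stretch is built from short repeated units of the kind known from mouse satellite DNA, where reads from many copies fall on few reference positions.

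The private share was larger in somKO than in mut at equal list length, but this does not show that somKO had more sites of its own. Of the mut peaks, 21.2% were mut-only (20.9 to 21.5), and of the somKO peaks, 30.2% were somKO-only (29.9 to 30.6). Against the full somKO list of 89974 peaks, 9860 mut peaks had no partner, a share of 14.9%. The other 4123 mut-only peaks had a somKO peak below the score at which the somKO list was cut. Where partners had to cover 50% of each other, the private share was 52.2% in both lists, where this rule pairs peaks singly in lists of equal length. Under the main rule, shared peaks numbered 52048 in mut and 46088 in somKO. In lists of equal length, the difference in private peaks is the same as this difference in shared peaks. It arises where several mut peaks overlap the same somKO peak. With midpoints within 500 bp as the rule, the private shares were 35.6% for mut and 36.2% for somKO. The median width was 919 bp in the cut somKO list and 612 bp in the mut list. The part of width in the private shares was not tested apart.

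Private peaks were mostly the weak and narrow ones of each list. The deposited score ranks peaks within their own list, and it is given here as a percentile, with 100 the highest. The median percentile was 20.0 for mut-only peaks and 60.04 for shared mut peaks, and it was 24.0 for somKO-only and 64.2 for shared somKO peaks. Mut-only peaks had a median width of 367 bp against 742 bp for shared ones, and somKO-only peaks 431 bp against 1291 bp. In the lowest 10% of scores, 57.0% of mut peaks were mut-only (55.8 to 58.2) and 66.2% of somKO peaks were somKO-only (65.0 to 67.3). The shares fell in each step of rank, and in the highest 10% only 3 of 6608 mut peaks and 7 of 6604 somKO peaks were private. Above the middle of its list lay 982 mut-only peaks, 7.02% of them, and 2559 somKO-only peaks, or 12.8%.

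**Figure D1:**
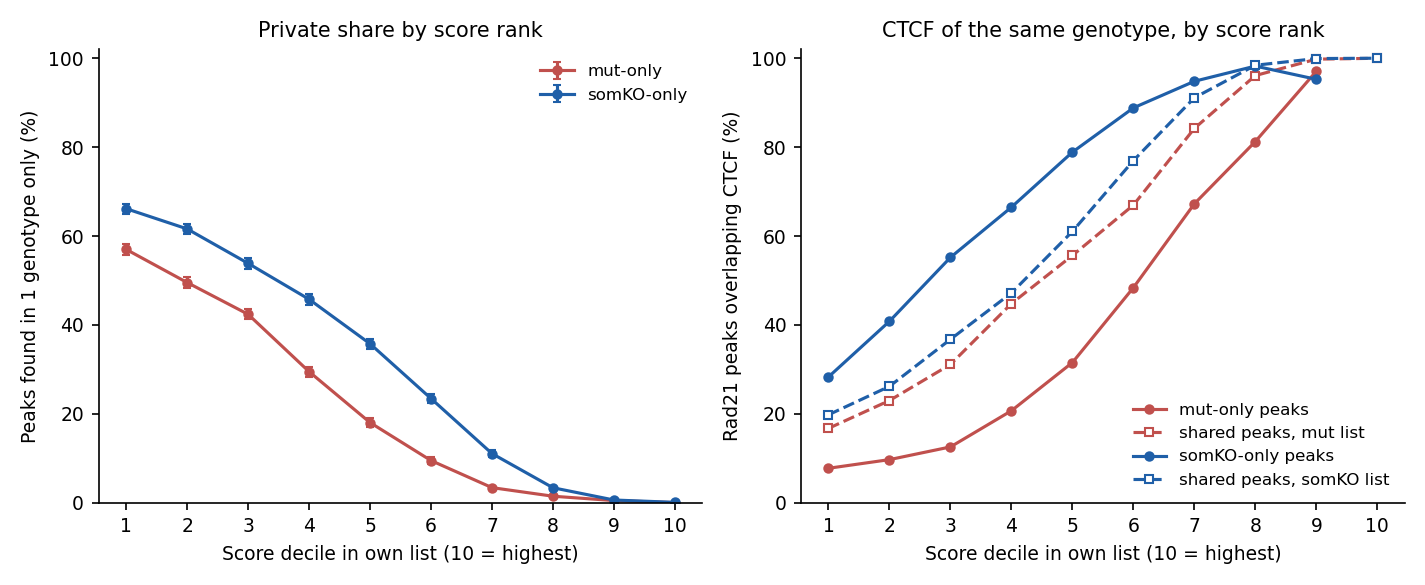
Left, share of Rad21 peaks found in 1 genotype only (%), by decile of the list's own score rank, where 10 holds the highest scores, with 95% Wilson intervals: it falls from 57.0% (mut) and 66.2% (somKO) to near 0. Right, share of private (filled) and shared (open) peaks that overlap a CTCF peak of the same genotype (%), for groups of at least 30 private peaks: mut-only peaks lie below and somKO-only peaks above the shared peaks of their list through most of the rank range.

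Mut-only and somKO-only peaks differed in their relation to CTCF. Of the mut-only peaks, 16.5% overlapped a CTCF peak of mut cells (15.9 to 17.2), against 69.7% of shared mut peaks. Of the somKO-only peaks, 55.4% overlapped a CTCF peak of somKO cells (54.8 to 56.1), against 76.3% of shared somKO peaks. The CTCF lists were of unequal length, 57798 peaks in mut and 69736 in somKO, and with the CTCF somKO list cut to the shorter length the somKO-only share was 50.5%. With the full lists as deposited, the shares were 17.4% for mut-only and 34.8% for somKO-only peaks. Chromatin for CTCF was fixed with formaldehyde alone and chromatin for Rad21 with EGS in addition, so that absence from a CTCF list is not absence of CTCF.

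The difference was also seen at matched rank within each list, but equal rank was not equal score. The lowest score kept was 13 in mut and 62 in somKO. Decile 3 held scores from 43 to 62 in mut and from 109 to 150 in somKO. The median score was 43 for mut-only and 125 for somKO-only peaks. In score decile 3, counted from the lowest, 12.6% of mut-only peaks had CTCF against 31.1% of shared mut peaks, whereas 55.2% of somKO-only peaks had it against 36.8% of shared somKO peaks. In decile 6 the values were 48.4% and 67.0% for mut and 88.8% and 77.0% for somKO. At the same rank, mut-only peaks thus had CTCF less often than shared peaks in each decile, and somKO-only peaks more often in deciles 1 to 7. In deciles 8, 9 and 10, which held only 224, 42 and 7 somKO-only peaks, their CTCF share was below that of shared peaks.

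Part of the private peaks lay on CTCF sites found in both genotypes, though fewer than in the lists as a whole. Of all peaks, 60.2% in the somKO list and 55.0% in the mut list overlapped CTCF in both mut and somKO. Among somKO-only Rad21 peaks, 6151 (30.8%) did so, and 4907 (24.6%) overlapped CTCF in somKO alone. A CTCF peak of mut alone was found at 176 (0.883%), and 8709 (43.7%) had no CTCF peak in either. Among mut-only peaks, 1290 (9.23%) had CTCF in both genotypes, 1024 (7.32%) in mut alone and 222 (1.59%) in somKO alone. The remaining 11447 mut-only peaks, 81.9% (81.2 to 82.5), had no CTCF peak in either genotype, compared with 26.6% of shared mut peaks.

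Letters of the CTCF core followed the same order. In the 300 bp around the midpoint, the core consensus was found in 0.994% of mut-only peaks and 4.03% of somKO-only peaks, against 5.96% of all mut peaks and 5.40% of all somKO peaks. Among private peaks that overlapped CTCF of their own genotype, it was found in 5.36% of mut-only and 6.77% of somKO-only peaks. Most peaks with CTCF thus held no match to this strict consensus in the window, and the shares are not those of CTCF sites. AP-1 is a dimer of Fos and Jun proteins that binds enhancers of fibroblasts. Its letters, TGANTCA, occurred in 21.6% of mut-only and 19.9% of somKO-only peaks, compared with 15.4% and 15.1% of all peaks of the lists. Of the groups counted, they were most frequent in private peaks without CTCF, at 24.0% of mut-only (23.2 to 24.8) and 30.5% of somKO-only peaks (29.5 to 31.4). The Mcu and Tbx3-side sequences printed above are examples. In private peaks with CTCF the AP-1 letters occurred in 9.20% of mut-only and 11.3% of somKO-only peaks. Shared peaks without CTCF were not counted apart, so whether the excess goes with private peaks or with the lack of CTCF was not tested. Private peaks had a median width of 367 bp in mut and 431 bp in somKO, against 612 and 919 bp over all peaks. The 300 bp searched thus cover a larger part of a private peak, and the part of this in the motif shares was not tested.

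The remaining motifs differed between the private sets. GGAATG, the letters of TEAD factors, which act in the Hippo pathway, occurred in 22.5% of mut-only and 14.7% of somKO-only peaks, against 17.3% and 15.3% over all peaks. TGTGGT, the core of RUNX factors, occurred in 25.1% of mut-only and 33.1% of somKO-only peaks, against 23.4% and 25.9%. The RUNX letters were found more often in somKO-only peaks with CTCF (36.8%) than in those without (28.5%). A match is only a description of letters in this window, and the windows of mut-only and somKO-only peaks had nearly the same median GC content, 45% and 44.7%.

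Sites of wt cells were also shared unequally. The Rad21 wt list, which played no part in choosing members, held 67655 peaks. It overlapped 16.2% of mut-only peaks (15.6 to 16.8) and 49.2% of somKO-only peaks (48.5 to 49.9), against 87.9% and 90.4% of the shared peaks. The wt share of somKO-only peaks rose with rank from 28.4% in decile 1 to 83.2% in decile 6, whereas that of mut-only peaks was 11.02% and 28.4%. SmcHD1 peaks of wt cells overlapped 1.15% of mut-only and 1.33% of somKO-only peaks, against 2.91% and 3.31% of shared peaks. Of the 266 somKO-only peaks on a SmcHD1 site, 112 were on chromosome 5. They made up 5.94% of the 1886 somKO-only peaks of that chromosome, a smaller share than among its shared somKO peaks (343 of 3339, 10.3%).

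The genomic classes of the private sets differed at promoters and between genes. The midpoint lay within 1.0 kb of an annotated transcript start in 19.8% of mut-only peaks (19.2 to 20.5) but in 9.06% of somKO-only peaks (8.67 to 9.46). Shared peaks had 26.96% in the mut list and 27.1% in the somKO list. Intergenic peaks were 31.8% of mut-only and 42.3% of somKO-only peaks, and introns held 44.2% and 45.2%. The difference was larger among stronger peaks. In decile 8, 45.8% of 96 mut-only peaks and 7.59% of 224 somKO-only peaks were at promoters, against 27.2% and 20.8% of shared peaks. Decile 10 held only 3 and 7 private peaks, of which 33.3% and 14.3% were at promoters. When both lists were cut to their 30000 highest scores, the private shares were 15.05% for mut and 17.4% for somKO, and 49.6% of mut-only against 12.4% of somKO-only peaks were promoters. In these lists 66.6% of mut-only and 90.8% of somKO-only peaks overlapped CTCF of their own genotype.

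**Figure D2:**
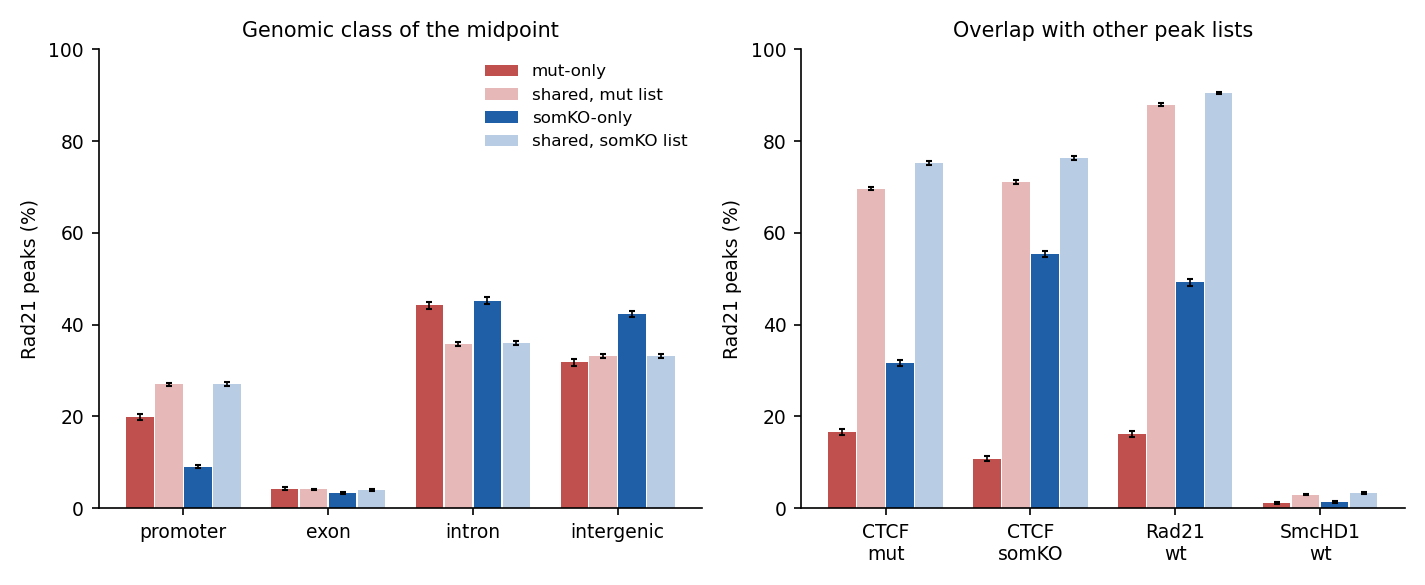
Left, genomic class of the peak midpoint, and right, overlap with the CTCF lists of mut and somKO and with the Rad21 and SmcHD1 lists of wt, as percent of mut-only, somKO-only and shared Rad21 peaks, with 95% Wilson intervals. Promoters hold 19.8% of mut-only and 9.06% of somKO-only peaks, and CTCF of the own genotype meets 16.5% and 55.4%.

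Counted by gene, 10340 of 21728 protein-coding genes had a Rad21 midpoint within 1.0 kb of a start in both lists, 1722 in the mut list alone and 633 in the somKO list alone. A gene listed for 1 genotype alone can still have a shared peak, because a wide peak can overlap while its midpoint lies elsewhere.

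Private peaks were spread unevenly over the chromosomes. The mut-only share was highest on chromosomes 15 (31.8%) and 10 (31.6%) and lowest on X, where 151 of 1477 peaks were mut-only (10.2%). The autosomes had 20.6% ± 5.70 (SD, n = 19 chromosomes), and X was last of 20, 1.83 SD below their mean. The somKO-only share was highest on X, with 802 of 2023 peaks (39.6%), next to chromosome 18 with 39.0%, and lowest on 15 (21.6%) and 10 (22.4%). The autosomes had 30.1% ± 5.14 (SD, n = 19 chromosomes), and X was first, 1.86 SD above their mean. X thus stood at the end of the range of the autosomes and not far outside it, with chromosome 18 its nearest neighbour in both shares. Under the rule of 50% reciprocal overlap, the mut-only share on X was 7.73 percentage points above the autosomal mean in place of 10.4 below it.

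**Figure D3:**
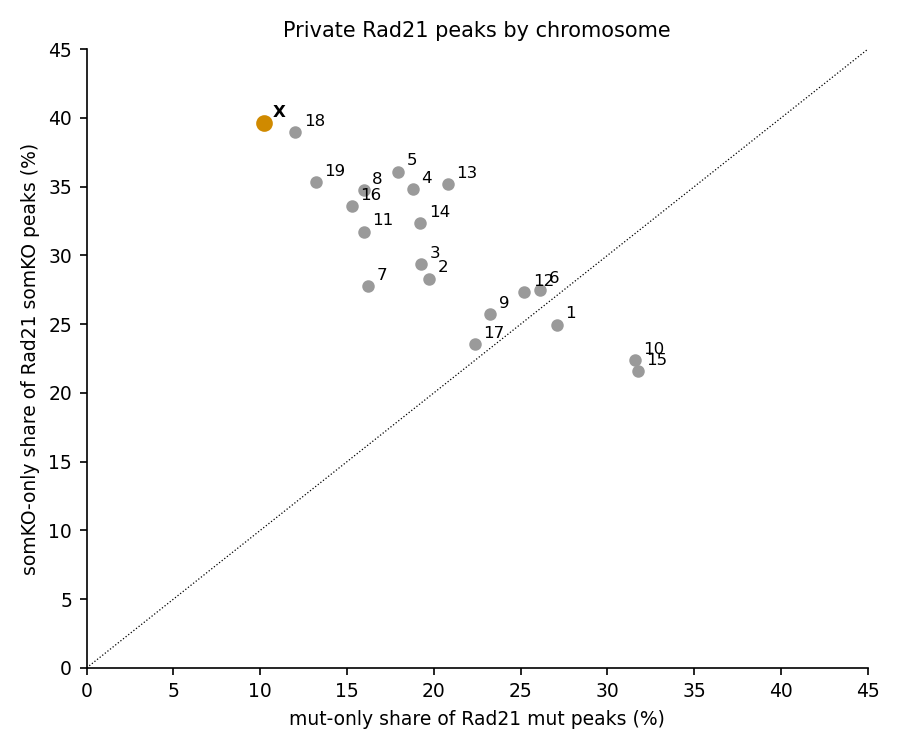
Each point is a chromosome, with the mut-only share of its mut peaks (%) on the horizontal and the somKO-only share of its somKO peaks (%) on the vertical axis; the dotted line marks equal shares. X, at 10.2% and 39.6%, lies at one end beside chromosome 18, and chromosomes 10 and 15 lie at the other.

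The number of peaks also differed by chromosome, again with X and 18 at one end and 10 and 15 at the other. On the log2 scale, the ratio of somKO to mut peaks was 0.45 on X, 0.35 on chromosome 18 and 0.21 on 16, and it was -0.37 on 15 and -0.31 on 10. Against the autosomal mean, X was higher by 0.45, or 2.41 times the SD of 0.18 over 19 autosomes. CTCF peak numbers, from other libraries of the same clones, gave ratios of 0.33 on X, 0.26 on 18, -0.24 on 10 and -0.28 on 15. Over the 20 chromosomes the 2 sets of ratios had a Pearson r of 0.96 and a Spearman rho of 0.92, which are descriptions of points that share clones, mappability and chromosome copies. The number of copies of each chromosome in these clones was not tested.

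Along X, the difference was smaller in the first of 3 equal sections than in the others, but it varied between windows. From 50 to 60 Mb, 24 of 157 mut peaks and 34 of 148 somKO peaks were private. From 70 to 80 Mb the counts were 20 of 177 and 61 of 199. In the first 10 Mb, 28 of 94 mut peaks were mut-only and 30 of 92 somKO peaks were somKO-only. From 90 to 100 Mb there were 80 mut peaks, of which 0 were mut-only, and 138 somKO peaks, of which 61 were somKO-only. From 120 to 130 Mb the counts were 0 of 16 and 34 of 49. Over 3 equal sections of the chromosome, the log2 ratio of somKO to mut peaks was 0.18, 0.52 and 0.71 from the centromere on, and that of CTCF peaks 0.11, 0.38 and 0.53. The autosomes had log2 ratios for Rad21 of 0.01 ± 0.23 (SD, n = 19) in the middle section, with a highest value of 0.46 on chromosome 4, below X. In the distal section they had 0.05 ± 0.26 (SD, n = 19), with a highest value of 0.75 on chromosome 14, above X. Since reads of both alleles were merged, the lists do not separate the active X (Xa) from Xi.

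**Figure D4:**
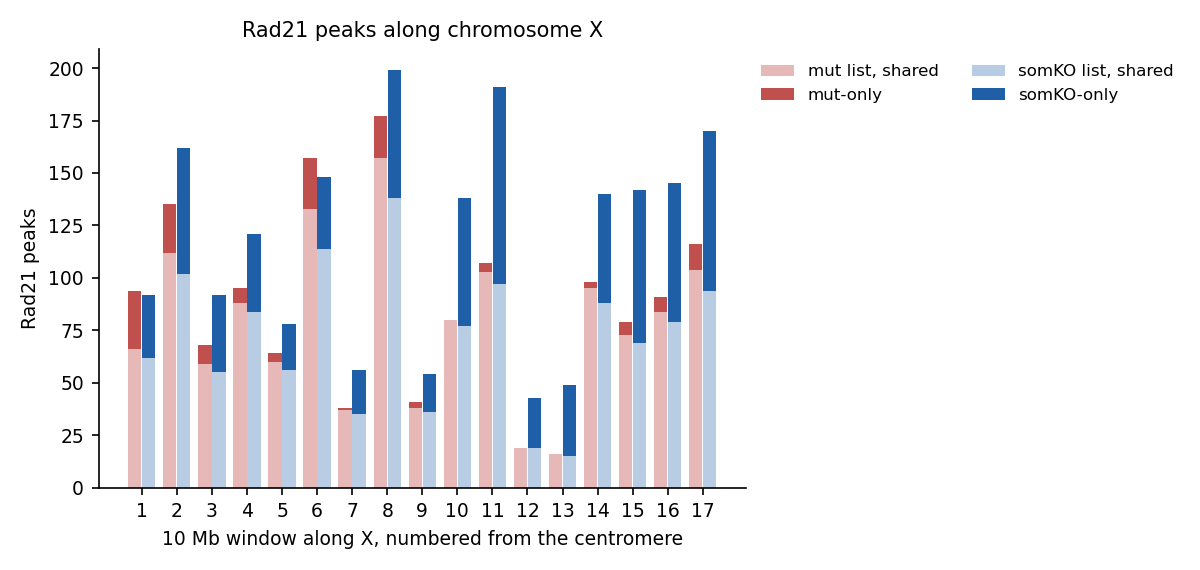
Number of Rad21 peaks in 10 Mb windows along X, numbered from the centromere, for the mut list (left bars) and the cut somKO list (right bars), with private peaks in dark and shared peaks in pale colour; the short last window is left out. The somKO-only peaks outnumber the mut-only ones by 30 to 28 in window 1, by 34 to 24 in window 6, by 61 to 0 in window 10 and by 34 to 0 in window 13.

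Promoters held 64 of 151 mut-only peaks on X, 42.4% (34.8 to 50.4), but 100 of 802 somKO-only peaks, 12.5% (10.4 to 14.9). Both sets of shared peaks on X had 20.4%. CTCF of the own genotype overlapped 16.6% of mut-only peaks (11.5 to 23.3) and 70.8% of somKO-only peaks (67.6 to 73.9) on X, against 80.9% and 88.1% of shared peaks. The wt Rad21 list overlapped 19.9% and 48.8% of them, against 91.6% and 92.6%. The mut-only CTCF share and the somKO-only wt share were close to those of all chromosomes. SmcHD1 peaks of wt cells overlapped 14.6% of mut-only peaks on X (9.82 to 21.1) and 4.99% of somKO-only peaks (3.68 to 6.72), against 11.8% and 13.5% of shared peaks.

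The highest-scoring mut-only peaks on X lay between genes, 84.6 kb from Dynlt3 as the nearest protein-coding gene, at Ccdc120, and in introns of Bcor, Mamld1 and Adgrg4. None of the 5 passed percentile 71.3, and 4 had a CTCF peak in mut cells. Among X genes, Ccdc120 and its neighbours Wdr45 and Gm45208 each had 4 mut-only and 0 somKO-only peaks in the gene with 10 kb on either side, and these 3 genes lie so close that they share peaks. Gpc3, a heparan sulphate proteoglycan of the cell surface, had 7 mut-only and 3 somKO-only peaks. Fhl1, a LIM domain protein, had 3 and 0.

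The highest-scoring somKO-only peaks on X were stronger. They had percentiles from 75.8 to 85.6. Of these, 3 lay in introns of Dmd, the dystrophin gene, and Il1rapl1, and in the noncoding gene Gm1989. The others were intergenic, and their nearest protein-coding genes were Eda2r at 347.9 kb and Zc3h12b at 24.3 kb. All 5 had CTCF in somKO cells, and 2 of them, at Dmd and Gm1989, had it in mut cells too. Mid1, a ubiquitin ligase gene at the distal end of X, had 12 somKO-only and 0 mut-only peaks, with 17 somKO and 6 mut peaks in all. Sh3kbp1 had 9 and 0, Arhgap6 had 7 and 1, and Phex had 7 and 0.

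Across all chromosomes, windows of 5 Mb with at least 30 peaks in the lists together were ranked by the ratio of somKO-only to mut-only peaks, with 1 added to each. Of 522 windows, 81 (15.5%) had a ratio of at least 4 towards somKO and 6 (1.15%) towards mut. The ratio was not scaled to the totals of 19943 somKO-only and 13983 mut-only peaks, so that the limit was easier to reach towards somKO. Most of the somKO-rich windows were on X (23), on chromosome 4 (14), on 18 (10) and on 14 (7), and the mut-rich ones on 15 and 10 (2 each) and on 3 and 7 (1 each). With the full lists as deposited, the longer somKO list gave 50.8% of windows towards somKO and 0 towards mut.

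The window with the largest ratio towards somKO lay on chromosome 14 from 70 to 75 Mb, with 56 of 94 somKO peaks private and 0 of 39 mut peaks. CTCF peaks numbered 82 in somKO and 45 in mut there. It holds Rb1, the retinoblastoma gene, which had 5 somKO-only peaks, and Dmtn with 4. On chromosome 4 from 45 to 50 Mb, 86 of 188 somKO peaks and 1 of 120 mut peaks were private, with 11 somKO-only peaks at Gabbr2 and 7 at Shb. Over 3 equal sections of chromosome 4, the somKO-only share was 42.0%, 46.4% and 20.8%, and the mut-only share 7.00%, 15.2% and 25.8%, so that the order of the genotypes turned within 1 chromosome.

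The window with the largest ratio towards mut lay on chromosome 15 from 50 to 55 Mb, with 109 of 199 mut peaks private and 14 of 95 somKO peaks. CTCF peaks numbered 56 in mut and 51 in somKO there, a smaller difference than that of Rad21. Ext1 held 54 of its mut-only peaks, Eif3h 13 and Trps1 6. On chromosome 10 from 120 to 125 Mb, 100 of 223 mut peaks and 20 of 136 somKO peaks were private, with 34 mut-only peaks at Hmga2 and 8 at Msrb3. On chromosome 7 from 5 to 10 Mb, 20 of 68 mut peaks and 4 of 50 somKO peaks were private, with 6 mut-only peaks at Usp29 and 3 each at Ccdc106 and Peg3. Usp29 and Peg3 belong to an imprinted cluster.

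Runs of consecutive private peaks gave a finer scale. Those at Hmga2 and Ext1 lay in the mut-rich windows named above, whereas the other loci named here did not lie in a window named above. In the mut list, 187 runs of at least 5 peaks held 1192 mut-only peaks, and in the somKO list 382 such runs held 2495. The longest mut-only run covered 22 peaks over 81.4 kb of chromosome 10 (chr10:120338881-120420257), 21 of them in Hmga2 with its flanks. The somKO list had 0 peaks in this stretch after the cut, and 17 of the 22 had no partner in the full somKO list. The wt Rad21 list had 6 peaks there, and CTCF had 3 in mut and 3 in somKO.

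The next run in the mut list held 20 peaks on chromosome 10 and reached into Nuak1, a kinase gene of the AMPK family (chr10:84254783-84390799). Another of 16 intergenic peaks lay at some distance before it (chr10:83822248-83929689). A run of 13 peaks covered Fn1, the fibronectin gene (chr1:71581077-71646280), and another of 13 lay inside Ext1 (chr15:53064582-53100869), where 0 peaks overlapped CTCF of either genotype or Rad21 of wt. Col1a2, which encodes a chain of type I collagen, held a run of 12 peaks within 16.9 kb (chr6:4512080-4528981). Most runs had low scores, with a median percentile of 21.3 at Hmga2 and 9.57 at Ext1. An exception was a run of 11 peaks at the start of chromosome 9 (chr9:3002077-3036306), at a median percentile of 73.2, over the models Gm10717, Gm10718 and Gm10719, whose near-identical copies make the placement of reads uncertain.

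The longest somKO-only run was of another kind. It held 50 peaks over 476 kb of chromosome 5 (chr5:119171123-119647296), between Med13l and Tbx3, a T-box factor of limb and heart development, and 38 of the 50 were intergenic. Their median percentile was 45.03 and the highest 96.0. The mut list had 0 peaks in this stretch, whereas the wt Rad21 list had 48, and 37 of the 50 somKO-only peaks overlapped one of these. CTCF had 22 peaks there in somKO and 4 in mut, and SmcHD1 had 17 in wt. A second run of 13 somKO-only peaks lay just before it (chr5:118928916-119159192), and 11 of these overlapped wt Rad21. The Tbx3 side sequence printed above lies inside the longer run, and the Med13l side sequence lies before both.

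Other long somKO-only runs lay between and within genes. One of 17 peaks spanned 2757 kb of chromosome 10 between Hace1 and Ascc3 (chr10:46435725-49192457), with 14 on wt Rad21 sites. Cntnap2, a long gene of the neurexin family, held a run of 16 peaks (chr6:45054276-46875294), 12 with CTCF in somKO and 6 with CTCF in mut. A run of 15 peaks at the prolactin gene cluster (chr13:26914773-27399844) had 0 peaks on CTCF of either genotype and 11 on wt Rad21.

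The 10 strongest mut-only peaks without any partner in the full somKO list included 6 at promoters. The first, in the model Gm21738, had percentile 98.0 and was also found in the wt Rad21 and wt SmcHD1 lists. The second covered the promoter of Mest, an imprinted gene expressed from the paternal allele, over 2721 bp at percentile 92.5. It overlapped CTCF of mut and SmcHD1 of wt, but neither CTCF of somKO nor Rad21 of wt. The nearest somKO peak was 42.6 kb away. Promoter peaks followed at Mettl24, Afap1l2, Galnt14, Nell2 and Rgs4, a regulator of G protein signalling, at percentiles from 84.6 to 87.3. The Nell2, Galnt14, Afap1l2 and Rgs4 peaks had a wt partner and the Mettl24 peak had none.

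The 10 strongest somKO-only peaks were mostly near Med13l and Tbx3. Of these 10, 7 lay on chromosome 5 between 118429098 and 119573032, and 2 more lay on the same chromosome beside Ints1 and in an intron of Elfn1. The last was on chromosome 4 beside Ptpn3. All 10 overlapped a wt Rad21 peak, 9 overlapped CTCF of somKO, and 5 overlapped SmcHD1 of wt. Their scores reached percentile 96.3.

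By gene, Ext1 had the most mut-only peaks. Ext1, which encodes a polymerase of heparan sulphate, had 74 mut peaks, of which 54 were mut-only, and 17 somKO peaks, of which 0 were somKO-only. Hmga2, a chromatin protein of embryonic mesenchyme, had 43 mut peaks with 34 mut-only, and 7 somKO peaks with 0 somKO-only. Col1a2 had 27 with 21 mut-only against 6 with 0, and Nuak1 had 24 with 18 mut-only against 6 with 0. Foxp1, a forkhead factor gene, had 41 mut-only and 12 somKO-only peaks, and the model Gm20696 overlaps it. Dnm3 had 34 and 3, Pard3b 21 and 1, and Magi1 20 and 2.

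The genes with the most somKO-only peaks seldom lacked mut-only ones. Gm20388, a read-through model of 4435 kb that spans many genes, had 117 somKO-only and 49 mut-only peaks, and Fgfr2, whose model spans 2961 kb in this annotation, had 32 and 10. Rbms3, an RNA-binding protein gene, had 22 and 9. Astn2 had 20 and 1, Mast4 20 and 4, and Babam2 20 and 10. Pakap had 19 and 8, Dlgap2 18 and 4, Sdk1 18 and 0, and Gas7 17 and 1. Counts are not scaled to gene length.

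**Figure D5:**
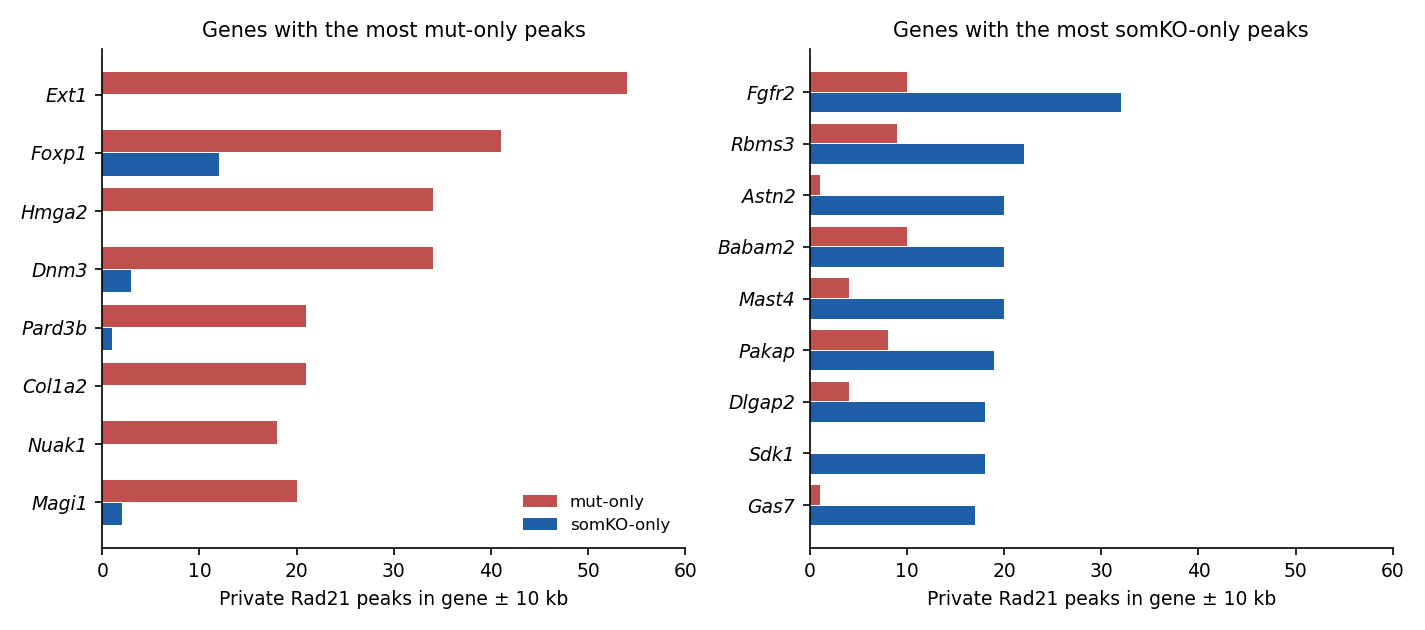
Number of mut-only and somKO-only Rad21 peaks in the gene with 10 kb on either side, for the genes with the most mut-only (left) and somKO-only (right) peaks that lack a partner in the full list of the other genotype; models Gm20388 and Gm20696, which overlap other genes, and chromosome 18 are left out. Ext1 has 54 mut-only and 0 somKO-only peaks, and Sdk1 has 18 somKO-only and 0 mut-only peaks.

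Fixed groups of genes were read against all protein-coding genes, where 19.2% of the mut peaks assigned to genes were mut-only and 25.05% of the somKO peaks were somKO-only. Of the 21728 genes, 4327 had more mut-only and 6196 more somKO-only peaks. Of 20 collagen and matrix genes, 8 had more mut-only and 6 more somKO-only peaks, with a median difference of 0, as over all genes. Their mut-only share was 41.9%, or 72 of 172 peaks. The genes Col1a2 (21), Fn1 (13), Timp3 (10), an inhibitor of matrix proteases, and Col5a1 (8) held 52 of the 72, and the share over the remaining genes was 21.5%. Fbn1, the fibrillin gene, went the other way with 6 somKO-only and 3 mut-only peaks. Col3a1 had 0 of either.

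Of 37 mesenchymal and limb patterning factors, 13 had more mut-only and 13 more somKO-only peaks. Their mut-only share was 31.8%, or 49 of 154 peaks, and their somKO-only share 28.4%, or 33 of 116. Prrx1, a homeobox factor of limb mesenchyme, had 10 mut-only and 0 somKO-only peaks, Foxd1 6 and 1, and Twist2 4 and 1. Runx1 had 3 mut-only and 7 somKO-only peaks, and Runx2, the factor of bone formation, 7 and 7. Tbx3 itself had 0 and 1 and Tbx5 0 and 1. Hand2 had 3 mut-only peaks and 0 somKO peaks, and Alx1 had 2 somKO-only peaks and 0 mut peaks.

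Cohesin and its regulators had few private peaks in mut, 5 of 47 (10.6%), and 16 of 56 (28.6%) in somKO. Mau2, the partner of Nipbl in loading the ring, had 3 somKO-only and 0 mut-only peaks, and Nipbl had 1 and 2. Smchd1 itself had 2 somKO-only and 0 mut-only peaks. Such peaks are no check of the knockout, which these files do not measure. Rad21 and Smc1a had 1 shared peak each and 0 private ones. Among AP-1 genes, Fosl2 had 7 somKO-only and 0 mut-only peaks and Atf3 5 mut-only and 0 somKO-only.

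Growth arrest genes had 8 mut-only of 35 peaks and 8 somKO-only of 30. Cdkn2a, which encodes p16 and p19, had 3 mut-only and 0 somKO-only peaks, and its neighbour Cdkn2b, which shares peaks with it, 2 and 0, whereas Rb1 had 0 and 5. Among 22 signalling genes, 7 had more of each kind. Tgfb2 had 5 mut-only and 2 somKO-only peaks, Fgfr1 2 and 4, and Hgf, the hepatocyte growth factor gene, had 3 somKO-only peaks and 0 mut peaks.

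Of 11 genes known to escape X inactivation, 10 had more somKO-only and 1 more mut-only peaks, and 25 of 59 somKO peaks (42.4%) were somKO-only. Of the 948 protein-coding genes of X, 271 had more somKO-only and 72 more mut-only peaks. The somKO-only share is near the 39.6% of X as a whole. Mid1 held 12 of the 25. Ftx had 3, Firre and Kdm6a 2 each, and Xist, Jpx, Kdm5c, Eif2s3x, Pbdc1 and 5530601H04Rik 1 each, all with 0 mut-only, and neighbours such as Ftx, Jpx and Xist share peaks. Ddx3x, an RNA helicase gene, was the exception with 3 mut-only and 0 somKO-only peaks. Firre was also the gene of this group with the most peaks, 19 in mut and 15 in somKO.

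Genes of other lineages had small numbers of peaks in both lists, so that their shares rest on few peaks. The 6 muscle genes had 0 mut-only of 7 and 2 somKO-only of 9 peaks. The 4 endothelial genes had 3 of 15 and 7 of 17 (41.2%), of which Pecam1 held 2 and 5, and the 4 blood genes had 1 of 11 and 4 of 13. The 5 neural crest and nerve genes had 3 of 8 (37.5%) and 6 of 11 (54.5%), above the shares over all genes. Among them Pax3 had 4 somKO-only peaks and 0 mut peaks, and Pax6 2 mut-only peaks and 0 somKO peaks. Peaks of cohesin are not expression, so that these counts do not measure which cells were present.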

How the data were processed

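ChIP-seq with a Rad21 antibody was carried out in mut (2 libraries) and somKO (4 libraries) MEFs. The authors aligned reads with Bowtie2 to a mouse genome with strain variants masked and used MACS2 with a q-value limit to call narrow peaks on merged libraries, without separating alleles. Versions and the use of inputs are not given in the sources used here. The deposited score was read as the whole part of 10 times -log10 of the q-value, an inference, and was used only to rank peaks within a list. No read counts are held, so that the depth is unknown.

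Lists were cut, overlapped and described in Python 3.11.15 with numpy 2.4.6, pandas 2.3.3, scipy 1.17.1 and pysam 0.24.0, and drawn with matplotlib 3.10.9. Genes came from GENCODE M21, and class was set by the midpoint in the order promoter, exon, intron, intergenic. Motifs were searched in 300 bp of the RefSeq genome of GRCm38. The overlap step was tested on simulated data. Named genes were the 10 strongest partnerless peaks of each list, the 10 genes with the most of them, 5 of each kind on X, the leading genes of the 5 longest runs and of extreme windows, and fixed groups (139 genes). The run at Col1a2, the one on chromosome 9 and the shorter one on chromosome 5 rank below these and were chosen after their values were seen. The members and lists were chosen with earlier results of these data known. Genes and positions on chromosome 18 are counted but not named. One gene that the rule selects is not reported here.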

Additional observations from a re-analysis of the deposited data

Results flagged for a closer look

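Rad21 peaks were listed on chromosome Y although the labels describe the cells as female, and Y has no part in the comparisons by chromosome above. The mut list held 34 such peaks, and the deposited somKO list held 32, of which 30 remained after the cut. Of these, 2 were mut-only and 7 somKO-only. Their origin was not tested.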

How the results depend on the processing

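No paired analysis was possible because each genotype has 1 merged list and the results come from no test. Of 66 values recomputed under other settings, 25 stayed within their counting interval (counts within 1.5 times, X within 1 SD of the autosomes), 40 moved further and 1 changed sign. The sign change was on X with an overlap of 50% of both peaks, where the mut-only share was 7.73 percentage points above the autosomes. The somKO-only share on X was then 18.8 points above the autosomes. Under this rule both private shares of the whole lists were 52.2%. The median score percentiles were then 30.7 for mut-only and 36.0 for somKO-only peaks. Against the full somKO list the median percentile of mut-only peaks was 18.8. With the full lists as deposited, the private share was 14.9% for mut, the value also found for the mut list against the full somKO list, and 43.4% for somKO. Promoters then held 17.8% of mut-only and 9.83% of somKO-only peaks, CTCF of the own genotype met 17.4% and 34.8%, and windows rich in mut-only and somKO-only peaks were 0% and 50.8%. With the 30000 highest scores, the private shares were 15.05% and 17.4%, the promoter shares 49.6% and 12.4%, and the CTCF shares 66.6% and 90.8% (the last 4 added after the data were seen). A score of at least 50 gave private shares of 10.1% and 39.9%, and midpoints within 500 bp gave 35.6% and 36.2%. Promoter shares were 16.5% and 6.05% with protein-coding genes alone and 29.97% and 19.2% within 2.5 kb, and without chromosomes 10, 15, 18 and X, added later, that of mut-only peaks was 20.7%. CTCF shares were 8.65% and 38.7% with an overlap of 50%, 15.6% and 60.5% at percentiles from 20 to 40 (added later), and 50.5% for somKO-only peaks with CTCF lists of equal length. In windows of 150 bp the CTCF core was found in 0.679% of mut-only and 2.75% of somKO-only peaks and the AP-1 letters in 12.6% and 11.6%, as fewer bases were searched. Windows of 10 Mb put the mut-rich share at 0.370%. The mut-only share exceeded the somKO-only share under none of these settings, and mut-only peaks had the larger promoter share and the smaller CTCF share under each setting run for both. Sequencing depth is unknown, and no interval covers differences between clones or libraries.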
